A study of Homo sapiens with 2 samples.

Results

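The forkhead genes other than FOXA were described in CAMA-1 by their accessible chromatin. They were taken from the GENCODE annotation as autosomal protein-coding genes whose symbol is FOX followed by a letter and a digit, without FOXA1, FOXA2 and FOXA3, and 45 of 19111 genes met this rule. FOXL2NB, which is named for its place beside FOXL2, was left out. CAMA-1 is an established breast cancer cell line of luminal epithelial character, and it was profiled without treatment by ATAC-seq, a method that sequences the DNA which the Tn5 transposase can reach and cut. The 2 biological replicates, of 50000 cells each, form a single condition, so that no groups of samples were compared.

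Forkhead factors bind DNA through a winged-helix domain, and many of them, though not all, recognise the core sequence TGTTTAC. FOXA1 is the forkhead factor best known in luminal breast cells, where it opens chromatin for the oestrogen receptor. The other subfamilies have different roles: FoxO factors are held out of the nucleus by AKT, FOXM1 drives mitotic genes, FoxP factors are dimerising repressors, and many of the FoxB to FoxI genes pattern particular embryonic tissues.

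The peak lists held 245736 peaks in replicate 1 and 259745 in replicate 2. The fold enrichment of a peak is the ratio, given by the peak caller, of its stacked reads to a background, which was 3.35 stacked reads in replicate 1 and 3.52 in replicate 2. Each library had a single background, so the values are not corrected for local DNA copy number. The paper reports copy-number aberrations in CAMA-1, and their part in comparisons between loci was not tested. Heights in stacked reads ran from 11 to 1744 and from 11 to 1759, with a median of 35 in both replicates. The total number of reads per library is not in the lists. All 7 luminal epithelial markers looked at (EPCAM, KRT8, KRT18, KRT19, CDH1, ESR1 and GATA3) had a peak at a transcription start site (TSS) in both replicates. Of 5 blood markers, 2 had such a peak, CD14 among them, while PTPRC, CD3E and CD79A had none, and both mesenchymal markers (COL1A1 and PDGFRB) had one. Over all markers this was 11 of 14, near the 80.3% of all protein-coding autosomal genes with such a peak, so that the count says little about cell type.

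The upstream sequences of 5 genes are shown because the results below turn on neighbouring genes that differ and on CpG content. FOXQ1, FOXF2 and FOXC1 lie side by side on chromosome 6 and only the outer pair had TSS peaks, and, within 500 bp of the canonical TSS, FOXK2 had the highest and FOXP2 the lowest observed over expected CpG of all members. Each is the 250 bases before the start of the gene in RefSeq (GRCh38.p14), 5′ to 3′, with CpG dinucleotides in capitals.
FOXQ1 (chr6:1311848-1312097, plus strand): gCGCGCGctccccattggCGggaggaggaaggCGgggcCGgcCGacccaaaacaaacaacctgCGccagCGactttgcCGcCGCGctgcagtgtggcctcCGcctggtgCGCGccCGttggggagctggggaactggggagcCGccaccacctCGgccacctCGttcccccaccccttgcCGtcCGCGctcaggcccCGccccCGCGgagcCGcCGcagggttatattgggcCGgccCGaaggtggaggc
FOXF2 (chr6:1389326-1389575, plus strand): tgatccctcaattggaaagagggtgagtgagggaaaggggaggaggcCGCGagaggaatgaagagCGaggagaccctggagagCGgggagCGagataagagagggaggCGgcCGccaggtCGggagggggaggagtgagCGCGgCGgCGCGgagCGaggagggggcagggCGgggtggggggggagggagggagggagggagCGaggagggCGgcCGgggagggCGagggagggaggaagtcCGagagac
FOXC1 (chr6:1609665-1609914, plus strand): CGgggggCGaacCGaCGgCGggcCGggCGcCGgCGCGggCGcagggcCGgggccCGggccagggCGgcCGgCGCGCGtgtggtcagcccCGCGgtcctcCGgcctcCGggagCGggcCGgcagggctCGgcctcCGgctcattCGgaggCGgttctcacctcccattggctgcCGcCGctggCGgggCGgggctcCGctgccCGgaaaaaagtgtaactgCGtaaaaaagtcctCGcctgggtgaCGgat
FOXK2 (chr17:82519482-82519731, plus strand): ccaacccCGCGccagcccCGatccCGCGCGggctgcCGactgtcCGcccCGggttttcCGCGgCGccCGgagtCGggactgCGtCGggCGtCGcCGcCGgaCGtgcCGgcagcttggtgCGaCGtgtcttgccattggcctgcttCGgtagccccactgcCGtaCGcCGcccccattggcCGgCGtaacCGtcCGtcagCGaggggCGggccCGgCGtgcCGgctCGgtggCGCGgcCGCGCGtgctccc
FOXP2 (chr7:114414565-114414814, plus strand): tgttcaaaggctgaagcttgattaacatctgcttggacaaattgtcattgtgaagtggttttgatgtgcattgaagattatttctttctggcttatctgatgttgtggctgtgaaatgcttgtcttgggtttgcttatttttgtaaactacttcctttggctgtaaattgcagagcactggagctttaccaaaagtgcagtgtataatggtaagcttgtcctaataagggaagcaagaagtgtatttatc

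The FOXQ1 sequence holds 29 CpGs, FOXF2 20, FOXC1 37, FOXK2 43 and FOXP2 0. RefSeq sequences were matched for 35 of the 45 members. FOXE3, FOXN2, FOXM1, FOXF1, FOXC2, FOXL1, FOXJ1, FOXS1 and the SMAD partner FOXH1 were among those without an entry.

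A TSS peak, defined as a peak within 1 kb of any annotated TSS of the gene, was found in both replicates for 28 of 45 forkhead genes. This was 62.2% (95% Wilson interval 47.6 to 74.9), against 80.3% of all 19111 protein-coding autosomal genes. A peak was present in 1 replicate for FOXL2 and FOXI1 and in neither for 15 members. Asked of the canonical TSS alone, 21 of 45 members had it under a peak in both replicates, against 66.0% of all genes. In 7 of the 28 members with a TSS peak, the canonical TSS itself lay outside the peaks of at least 1 replicate.

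Among members with a TSS peak, the strongest one had a median fold enrichment of 32.2 in replicate 1 and 36.9 in replicate 2, a mean of 34.6 ± 3.33 (SD, n = 2). Over all genes with a TSS peak the medians were 52.5 and 54.2, a mean of 53.3 ± 1.21 (SD, n = 2). The members spread widely, with quartiles of 18.7 and 71.1 against 28.7 and 84.2 over all genes. Of the 28 members, 10 lay above the median of all genes and 12 below its lower quartile. Their peaks had median widths of 1127 and 1016 bp, against 1044 and 1055 bp over all genes.

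**Figure D1:**
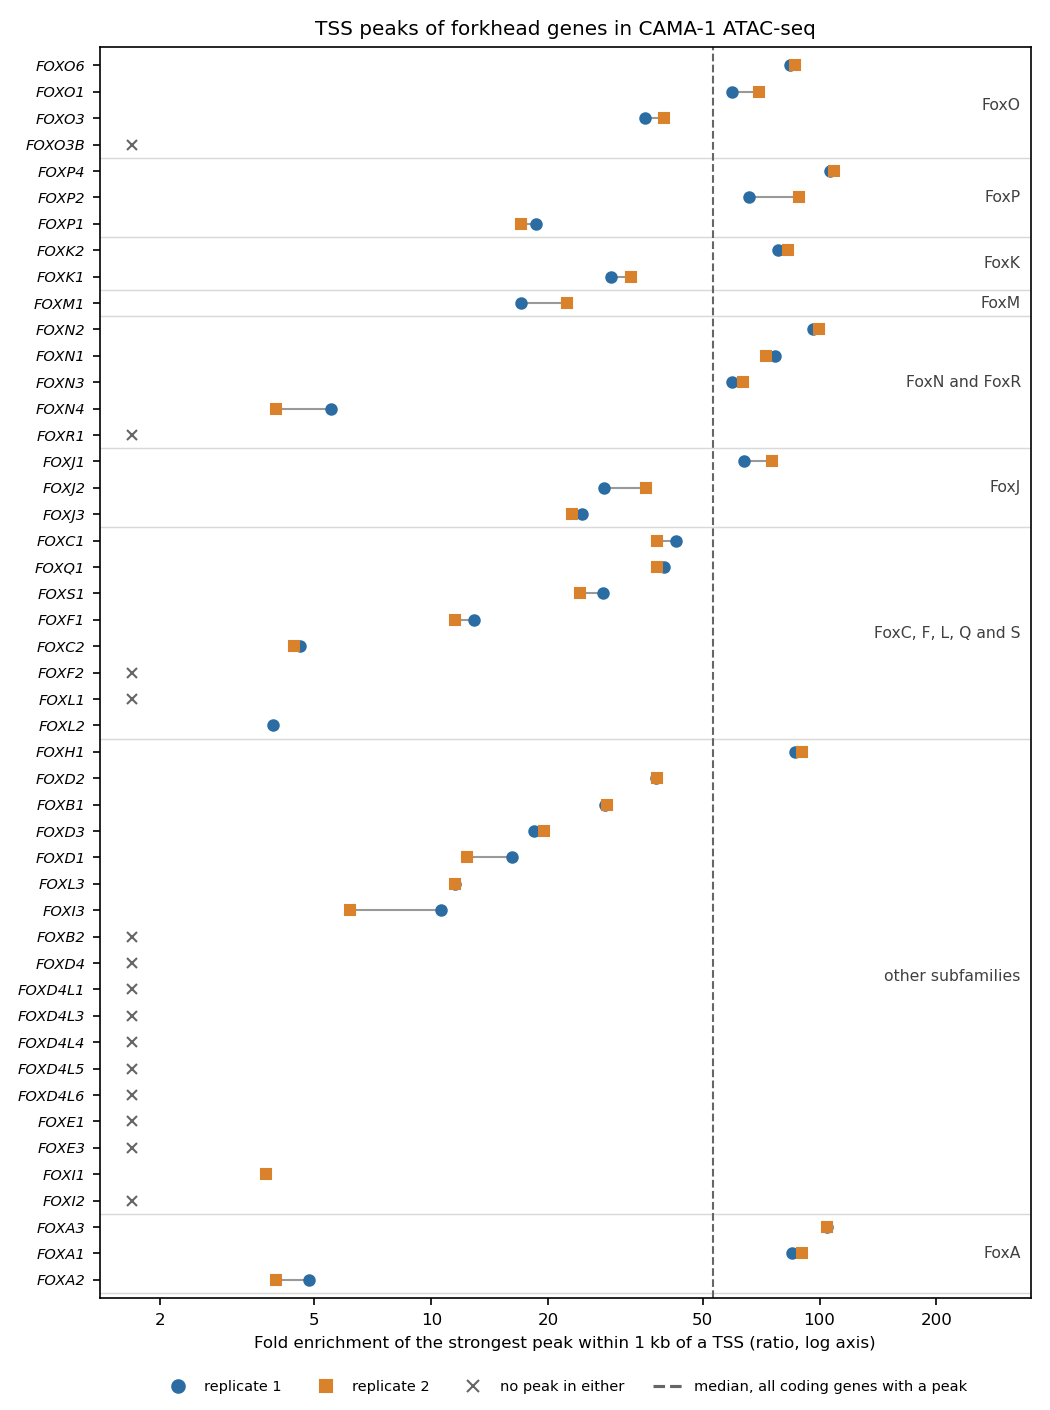
Fold enrichment (ratio to background, log axis) of the strongest peak within 1 kb of a TSS for the forkhead genes named in the text and, at the bottom, the 3 FOXA genes, with a circle for replicate 1 and a square for replicate 2. Crosses mark members without a peak in either replicate, and the dashed line is the median over all coding genes with a TSS peak, 53.3; 10 members lie to its right.

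The replicates gave nearly the same values in the median member, with a wider spread in single members. The fold enrichment of replicate 2 over replicate 1 had a median ratio of 1.02 in the members and 1.03 in all genes, and the SD over the mean was 5.55% in the median member and 5.32% in the median gene. The exact 95% Poisson intervals of the heights, which cover counting error only, did not overlap in 1 of 28 members, against 4.10% of all genes with a TSS peak. That member was FOXP2, with 285 stacked reads (253 to 320) in replicate 1 and 399 (361 to 440) in replicate 2. In 25 of 28 members the strongest TSS peaks of the replicates overlapped, and in FOXP1, FOXI3 and FOXN4 they were different peaks.

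Members of the FoxO group, the transcription factors that AKT phosphorylates in insulin and growth factor signalling, had TSS peaks in 3 of 4 cases. FOXO6 reached a fold enrichment of 84.0 in replicate 1 and 86.7 in replicate 2, FOXO1 59.6 and 69.9, and FOXO3 35.4 and 39.8. FOXO1 and FOXO6 thus lay above the median of all genes in both replicates and FOXO3 below it. The FOXO6 peak (chr1:41360183-41362295 in replicate 1) covered the canonical TSS, had heights of 364 and 391 stacked reads and was 2113 and 2900 bp wide. The FOXO1 peak (chr13:40665267-40667150) had heights of 258 and 315 and was 1884 bp wide in replicate 1 and 832 bp in replicate 2, where the replicates differed in how far the call extended. FOXO3B, a near copy of FOXO3, had no TSS peak, and its nearest region called in both replicates was 15569 bp from its TSSs.

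The partners and regulators looked at beside the forkhead genes were accessible throughout, with TSS peaks in both replicates in 29 of 29, against 80.3% of all genes. For the FoxO factors these were 9 genes, AKT1, AKT2, SGK1, PIK3CA, PIK3R1, SIRT1 and USP7 among them. SGK1, a kinase that phosphorylates FoxO factors as AKT does, had fold enrichments of 46.9 and 50.6, and the strongest peak by mean was at PIK3R1, which encodes a regulatory subunit of PI3 kinase, with 70.2 and 81.2.

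All 3 autosomal FoxP genes had TSS peaks, but at different kinds of TSS. FOXP4 had the strongest TSS peak of all members, with fold enrichments of 106.5 and 109.0 and a mean of 108 ± 1.76 (SD, n = 2). This peak (chr6:41568348-41569454 in replicate 1, 462 and 492 stacked reads, 1107 and 1201 bp wide) lay 22.5 kb downstream of the most 5′ TSS, with its edge 720 bp from an alternative TSS in replicate 1 and 708 bp in replicate 2. At the canonical TSS of FOXP4 the values were 57.5 and 52.2. The start of the gene was accessible at about the median of all genes, and the stronger peak lay inside the gene.

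FOXP2, known for its role in speech and language circuits, showed the reverse arrangement. Its strongest TSS peak, with fold enrichments of 65.8 and 88.5, covered the cluster of most 5′ TSSs (chr7:114084341-114088826 in replicate 1, 4486 bp wide). The canonical TSS, 328 kb downstream, lay under a peak of 7.59 and 8.62. The strong peak therefore sat at the far start of the gene and the CpG-free sequence printed above sat under a weak one.

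FOXP1, a repressor studied in lymphocytes and lung, had 67 annotated TSSs, 35 of them with a region within 1 kb in both replicates, yet no strong TSS peak. Its canonical TSS had 18.2 and 16.4. The strongest value near any of its TSSs was 18.6 in replicate 1, 41.2 kb downstream of the most 5′ TSS, and 17.0 in replicate 2, 472 kb downstream. The 4 listed partners of FoxP repressors all had TSS peaks, from HDAC2 at 16.6 and 19.0 to GATAD2B at 207 and 208.

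**Figure D2:**
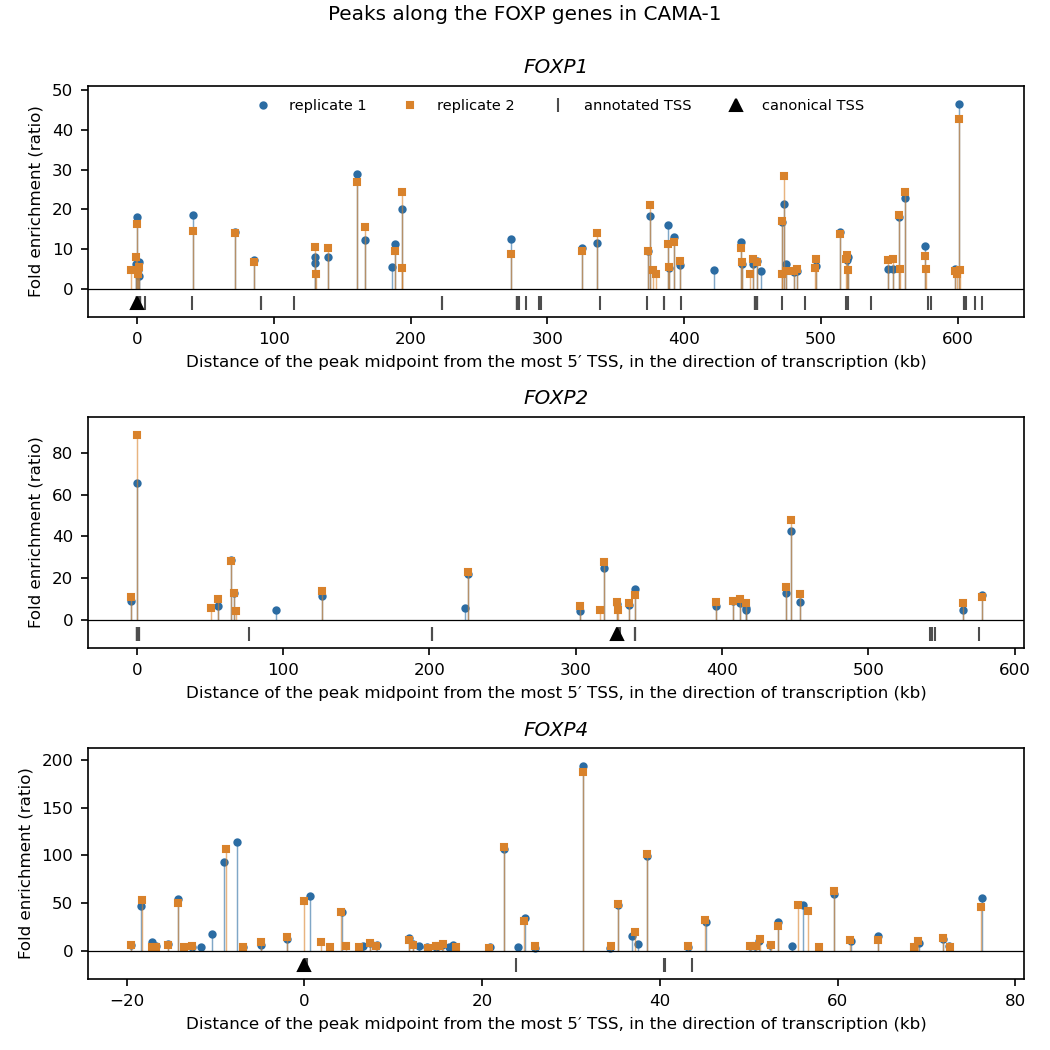
Fold enrichment (ratio) of each peak along FOXP1, FOXP2 and FOXP4 against its distance in kb from the most 5′ TSS, in the direction of transcription, with ticks for annotated TSSs and a triangle for the canonical one, and with blue circles for replicate 1 and orange squares for replicate 2. FOXP2 peaks at its most 5′ TSSs (65.8 and 88.5) and not at the canonical TSS (7.59 and 8.62), whereas the highest FOXP4 peak (193.5 and 188.2) lies within the gene.

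FOXK2 and FOXK1, which recruit the BAP1 deubiquitinase and SIN3A, both had a peak over the canonical TSS. FOXK2 reached 78.2 and 82.7 and FOXK1 29.0 and 32.7, so that the paralogues stood on opposite sides of the median of all genes in both replicates. The FOXK2 peak (chr17:82519016-82520350) had 339 and 373 stacked reads and was 1335 and 1337 bp wide. The 4 genes of the BAP1 list had TSS peaks, from BAP1 itself at 32.9 and 33.2 to SIN3A at 155.8 and 130.9.

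FOXM1, the forkhead activator of mitotic genes, had a modest TSS peak of 17.0 and 22.3, below the lower quartile of all genes. The peak also covered the TSSs of RHNO1 and TULP3, so its reads cannot be assigned to FOXM1 alone. The 9 listed genes of the MuvB complex and targets of FOXM1 all had higher TSS peaks than FOXM1 in both replicates, among them LIN52 at 133.7 and 133.3, CCNB1, the cyclin that drives entry into mitosis, at 128.2 and 130.9, and PLK1 at 100.6 and 99.1. The lowest was MYBL2 at 33.8 and 36.5. Ranked by mean fold enrichment, FOXM1 stood at percentile 16.8 of all genes that had a TSS peak. Most of those genes were thus higher than FOXM1 too, and the count does not set the 9 listed genes apart.

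In the FoxN and FoxR group, 4 of 5 members had TSS peaks. FOXN2 reached 96.4 and 99.7 over its canonical TSS (chr2:48314098-48315802, 418 and 450 stacked reads, 1705 and 1147 bp wide). FOXN3, a factor linked to cell cycle checkpoints, reached 59.4 and 63.5 (chr14:89416747-89418323, 257 and 286 stacked reads, 1577 and 1712 bp wide) in a peak shared with the start of the antisense gene FOXN3-AS1. That peak was at the canonical TSS, 202 kb inside the gene, while the most 5′ TSSs had 6.67 and 10.6. As in FOXP2, then, the TSSs of FOXN3 differed several-fold, although here the canonical one carried the strong peak.

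FOXN1, the regulator of thymic epithelium, had 76.9 and 73.0 (chr17:28524872-28525679, 333 and 329 stacked reads, 808 and 750 bp wide), but this peak was 18524 bp from the canonical TSS and only reached an alternative TSS at a distance of 931 bp in replicate 1 and 981 bp in replicate 2. No peak covered the canonical TSS of FOXN1. It was thus counted just inside the 1 kb limit, and it lay within an interval that RSKR also spans. FOXN4, a retinal factor, had 5.52 and 3.98 in different peaks of the replicates, and FOXR1 had none, with its nearest region 2148 bp away.

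All 3 FoxJ genes had a peak over the canonical TSS. FOXJ1, the master regulator of motile cilia, reached 64.0 and 75.6 (chr17:76141163-76141655, 277 and 341 stacked reads, 493 and 926 bp wide), in a peak that also covered a TSS of RNF157-AS1. FOXJ2 had 27.8 and 35.8 and FOXJ3 24.4 and 23.0. FOXJ1 was the only FoxJ gene above the median of all genes.

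FOXL3 was counted with the remaining members below. The FoxC, FoxF, FoxL, FoxQ and FoxS genes apart from FOXL3, many of them active in mesoderm, had TSS peaks in both replicates in 5 of 8 cases. All of these peaks were below the median of all genes. FOXC1, associated with basal-like breast cells, had 42.8 and 38.3, and FOXQ1 39.8 and 38.3, each over the canonical TSS. FOXS1 had 27.6 and 24.1 in a peak 906 bp from its TSS in replicate 1 and 588 bp in replicate 2. FOXF1, needed in lung vessels, had 12.9 and 11.5, and FOXC2, a factor of lymphatic vessels, had 4.60 and 4.42, and neither was called over the TSS itself (719 and 665 bp away for FOXF1, 682 and 674 bp for FOXC2). FOXF2 and FOXL1 had none, and FOXL2, the ovarian granulosa cell factor, had a peak of 3.91 in replicate 1 only.

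These genes form groups in the genome. On chromosome 6, FOXQ1, FOXF2 and FOXC1 span 301.8 kb, and 24 regions were called there in both replicates, 21 of them more than 1 kb from any TSS. FOXF2, in the middle, had no TSS peak, although the sequences printed above are rich in CpG for all 3. Its nearest region was 1039 bp from its TSS, just outside the limit, with 9.66 and 10.4. On chromosome 16, FOXF1, FOXC2 and FOXL1 span 73.0 kb with 14 regions, 10 of them away from TSSs. FOXL1 had no TSS peak and its nearest region was 1979 bp away. The strongest region of the chromosome 6 group had a mean fold enrichment of 54.1 and that of the chromosome 16 group 27.6.

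**Figure D3:**
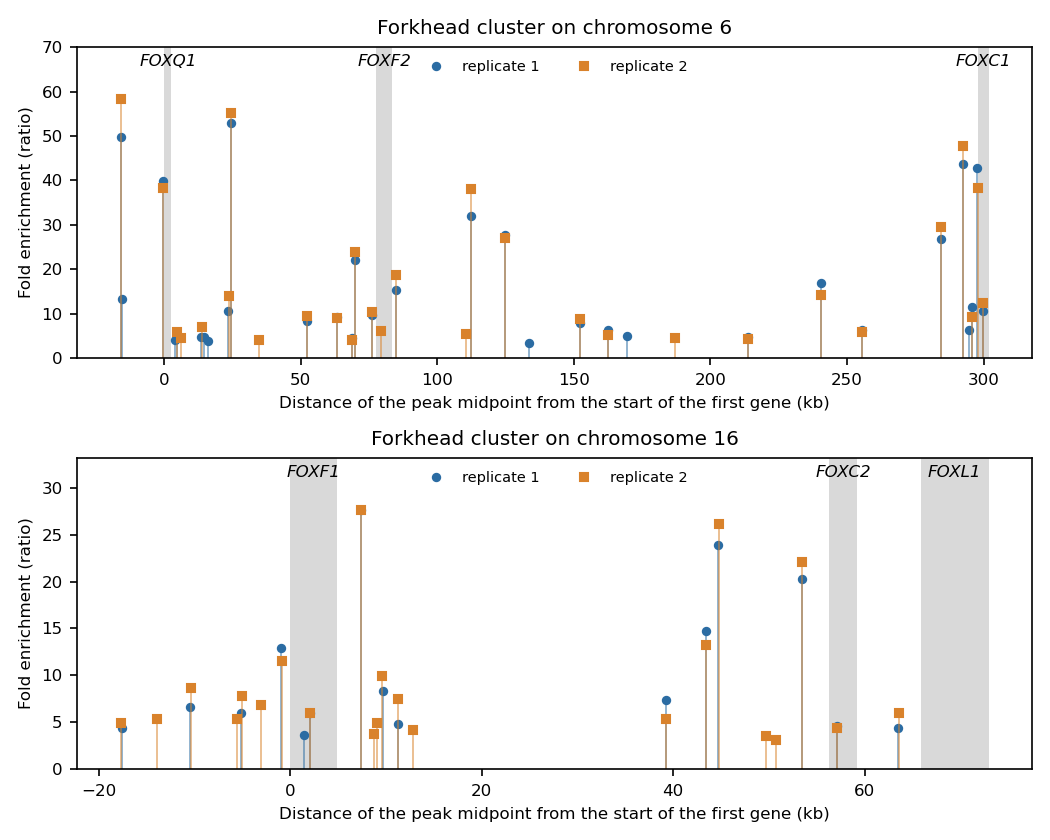
Fold enrichment (ratio) of peaks in each replicate across the forkhead groups on chromosomes 6 and 16, against the distance in kb of the peak midpoint from the start of the first gene, with the genes as grey bands, blue circles for replicate 1 and orange squares for replicate 2. Peaks stand at FOXQ1 (39.8 and 38.3) and FOXC1 (42.8 and 38.3) but not at the start of FOXF2, and in both groups the tallest peaks lie outside the grey bands.

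FOXH1, the partner of SMAD proteins in Nodal signalling, had a fold enrichment of 86.3 and 90.0, with 374 and 406 stacked reads. This peak was 4200 and 4250 bp wide and covered the TSS of PPP1R16A, and its edge was 171 bp from the canonical TSS of FOXH1 in replicate 1 and 247 bp in replicate 2. A separate peak over the canonical TSS of FOXH1 itself had 4.14 and 4.42. Which gene the strong peak belongs to was not tested. The 3 listed SMAD genes had TSS peaks, SMAD2 at 59.6 and 65.9, SMAD3 at 56.1 and 53.1 and SMAD4 at 24.9 and 30.3.

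Of the 19 members outside the groups above, most of them genes of embryonic patterning, 7 had a TSS peak in both replicates, FOXH1 and FOXL3 included, or 7 of 13 without the FOXD4 genes. FOXD2 had 38.0 in both replicates, FOXB1, a gene of the developing hypothalamus, 28.1 and 28.3, FOXD3, a neural crest factor, 18.4 and 19.5 in a peak shared with FOXD3-AS1, and FOXD1, a factor of kidney stroma, 16.1 and 12.4. FOXL3 had 11.5 in both replicates, in a peak 1432 and 1431 bp from its canonical TSS and 258 and 257 bp from an alternative one. FOXI3, a gene of ectodermal placodes, had 10.6 and 6.19 in different peaks. The FOXB1 peak was 52 and 55 bp from the canonical TSS and was shared with a noncoding gene. Apart from FOXH1, the fold enrichments of these genes all lie below the median of all genes. FOXI1, a factor of ionocytes, had a peak of 3.76 in replicate 2 only. None was found for FOXB2, FOXE1, FOXE3 and FOXI2, nor for FOXD4, FOXD4L1, FOXD4L3, FOXD4L4, FOXD4L5 and FOXD4L6. FOXE1 acts in the thyroid and FOXE3 in the lens.

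**Figure D4:**
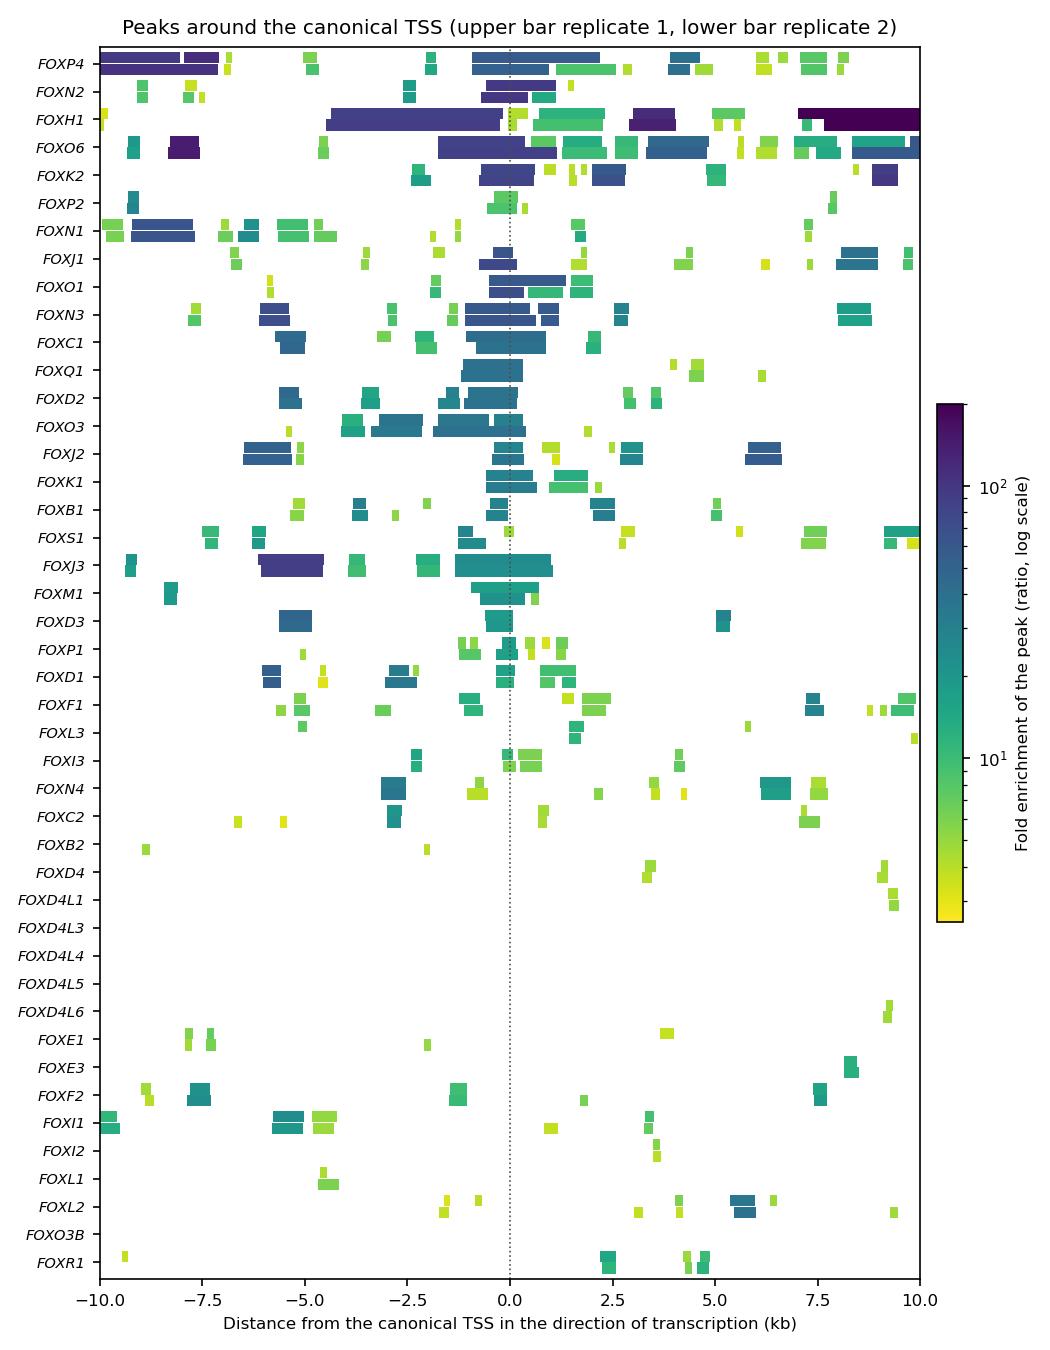
Peaks within 10 kb of the canonical TSS of each forkhead gene named in the text, in the direction of transcription (kb), with replicate 1 above replicate 2 in each row and colour for fold enrichment (ratio, log scale), genes ordered by the mean fold enrichment of their TSS peak. FOXN1 and FOXH1 stand high in the order without a strong peak over the canonical TSS, and FOXD4L3, FOXD4L4, FOXD4L5 and FOXO3B show no peak in the window.

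The 3 FOXA genes were set beside the members. FOXA1 had 84.9 and 90.2 in a peak over its canonical TSS that also covered a TSS of the coding gene TTC6. FOXA3 had 104.7 and 104.6 in a peak that covered the start of SYMPK and no TSS of FOXA3. The edge of that peak lay 638 bp from the canonical TSS of FOXA3 in replicate 1 and 646 bp in replicate 2. FOXA2, a gene of liver and gut, had 4.83 and 3.98. FOXO6 (84.0 and 86.7) and FOXK2 (78.2 and 82.7) were below FOXA1 in both replicates by a small margin. FOXN2 (96.4 and 99.7) and FOXP4, in its peak near an internal TSS, were above it in both replicates. The Poisson intervals of the heights of FOXO6, FOXK2 and FOXN2 overlapped that of FOXA1 in each replicate, and those of FOXP4 did not. These genes lie on different chromosomes, and their values are not corrected for copy number. Ranked only among genes with a TSS peak on its own chromosome, FOXO6 moved from percentile 75.7 to 68.1. FOXA3 moved from percentile 85.2 to 91.9 and FOXA1 from 77.0 to 79.0.

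The members without a TSS peak were mostly short genes with a single TSS. Of 28 members under 10 kb long, 12 had a TSS peak in both replicates, against 65.0% of all genes of that length. Of 17 members of at least 10 kb, 16 had one, against 85.5%, and FOXO3B was the exception. Of 21 members with a single annotated TSS, 9 had a TSS peak, against 47.9% of all such genes, and of 24 with several TSSs, 19 did, against 86.2%. The part of length and TSS number in the share of members called was not tested.

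CpG islands mark the promoters of many housekeeping and developmental genes, and CpG content was set beside the calls. A promoter was called CpG-rich where, within 500 bp of the canonical TSS, observed over expected CpG was at least 0.6 and GC at least 55%. Of 36 CpG-rich members, 24 had a TSS peak in both replicates (66.7%), against 93.2% of all CpG-rich genes. Their median mean fold enrichment was 31.3, against 58.5. Of the 9 other members, 4 had a TSS peak (44.4%), against 60.6%. These 4 were FOXP2, FOXN1, FOXH1 and FOXS1, and in none of them did the strongest peak cover the canonical TSS at which CpG was counted.

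The CpG content of the CpG-rich members without a TSS peak in both replicates overlapped that of members with one. Leaving out 3 that lie in copied sequence, 9 of 33 had no TSS peak in both replicates, with a median observed over expected CpG of 0.773, within the range of 0.693 to 1.07 of the 24 with a peak, whose median was 0.882. FOXB2, FOXE1, FOXE3, FOXF2, FOXI2, FOXL1, FOXL2 and FOXR1 were among these 9 genes, and FOXF2, printed above, had a GC content of 76.2%, the highest of them.

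**Figure D5:**
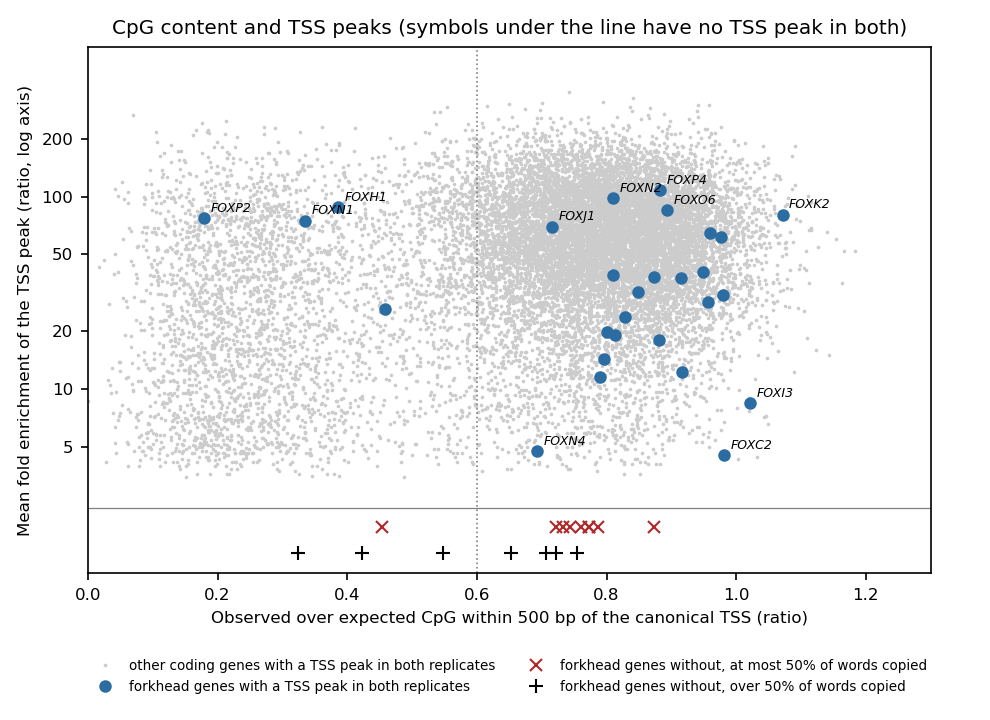
Mean fold enrichment of the strongest TSS peak (ratio, log axis) against observed over expected CpG within 500 bp of the canonical TSS, for the forkhead genes named in the text (blue) and the other coding genes with a TSS peak (grey). Red crosses and black plus signs below the line are members without a TSS peak in both replicates, the plus signs being the 7 in copied sequence, and most of the red crosses stand to the right of the dotted line at 0.6 on the CpG axis, below members with peaks.

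Part of the family lies in duplicated sequence, where a short read may match several places. For each member, words of 32 bases within 1 kb of the canonical TSS were searched on both strands of the autosomes. A word found more than once, also within the same window, counted as copied. In FOXD4, FOXD4L1, FOXD4L3, FOXD4L4, FOXD4L5, FOXD4L6 and FOXO3B, 73.1% to 100% of the 1970 words occurred more than once, and none of these 7 genes had a TSS peak. In the other 38 members at most 25.4% did, in FOXO3, and 28 of the 38 (73.7%) had a TSS peak. How reads with several matches were treated is not given in the sources used here, so that closed chromatin and reads that could not be placed cannot be told apart at the 7 genes. Another 10 members without a TSS peak in both replicates lie in sequence that is mostly unique among the autosomes.

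The FOXD4 copies show how alike these stretches are. The 80 bases just before the start of FOXD4 were matched without gaps to the surroundings of each copy. The 4 stretches that lie upstream of the annotated start are shown, 5′ to 3′ on the strand given, with bases that differ from FOXD4 in capitals (hg38).
FOXD4 (chr9:118418-118497, minus strand): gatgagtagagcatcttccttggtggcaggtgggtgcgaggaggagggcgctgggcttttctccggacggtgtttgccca
FOXD4L3 (chr9:68302573-68302652, plus strand): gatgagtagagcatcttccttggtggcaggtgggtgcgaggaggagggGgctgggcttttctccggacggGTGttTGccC
FOXD4L4 (chr9:65736768-65736847, plus strand): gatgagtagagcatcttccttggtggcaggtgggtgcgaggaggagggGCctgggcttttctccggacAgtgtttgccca
FOXD4L6 (chr9:41128683-41128762, minus strand): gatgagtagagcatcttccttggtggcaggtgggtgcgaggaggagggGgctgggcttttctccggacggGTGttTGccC

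FOXD4L4 differed at 3 of 80 bases and FOXD4L3 and FOXD4L6 at 7 each, most of them at the end, where a gap would shift the letters. FOXD4L1, at 1 of 80, and FOXD4L5, at 3, are given as counts since their stretches lie beyond the annotated start.

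Regions called in both replicates more than 1 kb from any TSS were then counted within 20 kb of each member. There were 365 of them, and 39 of 45 members had at least 1, against 93.5% of all genes. The median was 5 per member and 6 per gene, or 0.703 and 0.723 per 10 kb of window, and the median fold enrichment of these regions was 9.37 against 9.13 over all such regions. These medians of the forkhead genes were close to those of all genes. FOXD3, FOXD4L3, FOXD4L4, FOXD4L5, FOXD4L6 and FOXO3B had none.

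The count was uneven across members. FOXP4 had 37 regions in a window of 96.0 kb, or 3.85 per 10 kb, which put it at the 99.8th percentile of all genes. Its strongest (chr6:41576065-41579431), in an intron, had fold enrichments of 193.5 and 188.2 and heights of 840 and 850 stacked reads, above every TSS peak of the members. FOXO6 had 21 regions (3.41 per 10 kb), the strongest intergenic (chr1:41353607-41354365) with 143.1 and 141.1. FOXN1 had 24 (3.30 per 10 kb), the strongest (chr17:28527612-28528696) with 93.9 and 105.5 in introns of FOXN1 and RSKR. FOXN4 had 19 (2.66 per 10 kb) although its own TSS peaks were among the weakest, and the strongest (chr12:109264040-109264591), with 69.7 and 54.6, lay in an exon of the neighbouring gene ACACB.

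The other members with many regions were long genes. FOXP1 had 32 regions but only 0.478 per 10 kb, and its strongest (chr3:70982744-70983217) had 46.5 and 42.7, above every value near its TSSs. FOXN3 had 29 regions (0.543 per 10 kb), with 86.3 and 101.5 at the strongest, an intronic one (chr14:89284358-89285177). FOXJ3 had 23 (1.15 per 10 kb), with an intergenic region (chr1:42339775-42341382) of 90.2 and 90.9 against 24.4 and 23.0 at its TSS. FOXK2 had 22 (1.33 per 10 kb), with an intronic region (chr17:82528551-82529201) of 92.3 and 99.9, above its TSS peak in both replicates.

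The forkhead motif TGTTTAC, on either strand, was counted within 100 bp of the midpoints of these regions. It was present in 21 of 365 (5.75%, 95% Wilson interval 3.79 to 8.63), against 6.22% of all 167634 regions away from TSSs. The share of all regions lay within the interval of the forkhead loci, and a match of these letters is a description and not a binding site. FOXP1 had the most, with 5 of its 32 regions, and FOXJ3 and FOXP2 had 3 each. The strongest 4 regions that hold the motif are shown, as the bases around the midpoint on the plus strand of hg38, with the motif or its reverse complement in capitals.
FOXK1 (chr7:4745014-4745214, plus strand): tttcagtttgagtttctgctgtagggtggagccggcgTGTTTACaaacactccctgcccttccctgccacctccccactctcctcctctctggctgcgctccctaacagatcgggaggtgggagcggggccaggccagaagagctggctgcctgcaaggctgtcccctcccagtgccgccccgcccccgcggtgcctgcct
FOXP4 (chr6:41584871-41585071, plus strand): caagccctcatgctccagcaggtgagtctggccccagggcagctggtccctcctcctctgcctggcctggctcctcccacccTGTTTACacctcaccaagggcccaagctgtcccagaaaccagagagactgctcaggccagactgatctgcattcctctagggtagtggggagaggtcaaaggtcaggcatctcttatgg
FOXN3 (chr14:89214466-89214666, plus strand): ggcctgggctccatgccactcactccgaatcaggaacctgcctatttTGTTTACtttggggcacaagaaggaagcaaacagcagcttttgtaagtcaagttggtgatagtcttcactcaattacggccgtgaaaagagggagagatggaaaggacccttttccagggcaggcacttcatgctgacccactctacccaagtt
FOXP4 (chr6:41532047-41532247, plus strand): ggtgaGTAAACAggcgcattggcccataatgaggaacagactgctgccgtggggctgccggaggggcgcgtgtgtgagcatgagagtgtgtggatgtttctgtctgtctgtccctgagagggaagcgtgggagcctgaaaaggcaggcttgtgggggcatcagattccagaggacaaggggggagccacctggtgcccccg

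The FOXK1 sequence comes from an intronic region with fold enrichments of 148.2 and 148.6, far above the TSS peak of that gene (29.0 and 32.7). The regions of FOXP4 shown first and second had 99.6 and 101.1 in an intron, the window beginning in the last bases of an exon, and 54.3 and 50.4 in an intron of the antisense gene FOXP4-AS1. The FOXN3 region had 85.1 and 93.1, also in an intron.

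Peaks within 1 kb of a TSS and within 20 kb of a gene say where chromatin is open, not which gene it serves. A peak was counted as shared where a TSS of another gene lay under the strongest TSS peak. It was shared with a coding gene in 2 of the 28 (FOXH1 and FOXM1), and with noncoding genes only in 5 more. Sharing within the 1 kb used to assign peaks was not counted, and FOXC2 shares its peak with FOXC2-AS1 in that way. The share of all genes with a shared peak was not counted.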

How the data were processed

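Nuclei of 50000 CAMA-1 cells per replicate were transposed with Tn5, and the authors called peaks in each replicate separately, without pooling. The submitters' processing notes name Trim Galore 0.6.5, Bowtie2 2.3.5.1, MACS2 2.2.6 and hg38. Per peak the authors deposited a score (10 times the −log10 q-value, cut to a whole number), a fold enrichment (a ratio), and the −log10 p-value and −log10 q-value. The treatment of duplicate and multiply matching reads and the total reads per library are not given in the sources used here or not in the lists.

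Heights in stacked reads were recovered from the deposited fold enrichment, taken as (height + 1) / (background + 1); a Poisson p computed from them lay within 0.01 of the deposited −log10 p in 100% of the peaks checked. Genes and TSSs came from GENCODE 44, with the first base of each transcript as a TSS. Peaks of the replicates were merged into regions by an overlap of at least 1 bp. Each gene was given the strongest peak within 1 kb of a TSS, and regions away from TSSs within 20 kb were counted. No test was run, since there is a single condition, and shares have 95% Wilson intervals. The functions were tested on simulated data. Members are named by subfamily, apart from items not reported here, with positions for the 10 strongest and for the strongest region of the 8 members with most regions. The members and lists were chosen with earlier results of these data known, and the search for copied words, the length classes and the sequences shown were chosen after the values were seen. Python 3.11.15 was used with pandas 2.3.3, scipy 1.17.1, numpy 2.4.6 and matplotlib 3.10.9.

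As alternatives, results were recomputed with other distances and TSS choices, reciprocal overlap, other measures of strength, other motif settings, with a minimum −log10 q of 10 or with 50000 peaks per replicate, and without each replicate or the 7 members in copied sequence.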

Additional observations from a re-analysis of the deposited data

Results flagged for a closer look

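The X-linked forkhead genes FOXO4, FOXP3 and FOXR2 lie outside the autosomal rule, and 2 of them had signal. FOXO4, the remaining FoxO gene, had a TSS peak with a fold enrichment of 44.408 in replicate 1 and 46.437 in replicate 2, between the values of FOXO3 and FOXO1. FOXP3, the regulator of regulatory T cells, had a weak TSS peak of 4.3718 in replicate 1 only. These were looked at because they were in no comparison of the report, and FOXR2 had no TSS peak in either replicate.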

How the results depend on the processing

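No paired analysis was possible because the replicates form a single condition. The count of forkhead genes with a TSS peak stayed between 22 and 32 under all alternatives but the 50000 strongest peaks of each replicate, which left 17. Under that alternative the median fold enrichment was 64.7, the regions away from TSSs 66, the share with the motif 10.6% and the share of all genes with a TSS peak 62.5%. This motif share rests on the 66 regions. No share over all regions was set beside it under that alternative, so it was not compared. The median strength of 34.6 became 29.2 with the peak nearest to the most 5′ TSS, and was 187 as −log10 q and 152.5 as height in stacked reads. Within 50 kb there were 577 regions. The motif share was 10.7% anywhere in the region (10.5% of all regions) and 14.5% for TNTTTAC (14.5%). The share of all genes was 74.2% within 100 bp, 86.0% within 3 kb, 72.7% at the most 5′ TSS, 77.9% at a −log10 q of at least 10 and 79.4% with reciprocal overlap. Without a replicate, the count of forkhead genes was 29 in both cases, the median 29.0 to 35.8, the regions 436 to 445, the motif share 4.59% to 5.39% and the share of all genes 81.3% to 81.8%. Without the 7 members in copied sequence, an alternative chosen after seeing the data, 28 members still had a TSS peak, now of 38. The lists give no total reads, so that a missing peak means only that none was detected at this depth.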

Other observations

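Genes named for a forkhead neighbour, but outside the rule, were looked at too, and some shared a peak with that neighbour. FOXCUT, a noncoding gene beside FOXC1, had a TSS peak with fold enrichments of 43.7 and 47.8, near those of FOXC1. FOXD2-AS1 had 15.2 and 17.2 and FOXD1-AS1 9.43 and 11.5. FOXP4-AS1 had 57.5 and 52.2 in the peak over the canonical start of FOXP4, and FOXC2-AS1 had 4.60 and 4.42 in the peak given for FOXC2. FOXP1-DT had 6.21 in replicate 1 and 16.4 in replicate 2, in different peaks. The value in replicate 2 is that of the peak over the canonical TSS of FOXP1. In replicate 1 that peak had 18.2 but was not within 1 kb of the FOXP1-DT start. FOXL2NB, the coding gene beside FOXL2, had 3.91 in replicate 1, in the peak given for FOXL2, and 3.76 in replicate 2, in a different peak. FOXO6-AS1, FOXP1-AS1, FOXP1-IT1, FOXF2-DT and FOXN3-AS2 had no TSS peak in either replicate. Of the 7 members on chromosome 9 (FOXB2, FOXE1, FOXD4, FOXD4L3, FOXD4L4, FOXD4L5 and FOXD4L6), 0 had a TSS peak in both replicates, and 5 of them lie in copied sequence. No share over all genes of that chromosome was set beside this count.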
